A study of Homo sapiens with 18 samples.

Results

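The genes described here are 8 complement genes, *C3*, *CFB*, *C1R*, *C1S*, *CFI*, *CLU*, *CD46* and *CD55*, chosen by their symbols from the 40266 gene symbols of one expression table. All 8 were in the table, and all 8 passed the filter of at least 1 TPM (a transcript abundance corrected for transcript length and scaled to the same total in every library) in at least 3 libraries. They were measured by mRNA sequencing in 2 cell lines of pancreatic ductal adenocarcinoma (PDAC), Panc1, a mesenchymal-like line from a primary tumor, and Panc89, an epithelial line from a lymph node metastasis. *C3* and *CFI* passed the filter only through Panc89 libraries. Each line was studied as parental cells, as Holoclone cells, which the study uses as cancer stem cells, and as Paraclone cells, used as non-stem cells, which gives 6 groups of 3 libraries and 18 libraries in all. Each Holoclone and each Paraclone group was grown from 1 single cell, so a difference between them is a difference between clones and cannot be told apart from a difference between the cell states. The replicates are cell passages, and the labels name no drug or engineered change in any group.

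Complement is a set of proteins that mark surfaces for uptake by phagocytes and can open pores in cell membranes. The classical pathway starts with the serine proteases C1r and C1s, the alternative pathway is amplified by factor B, and both meet at C3, whose fragment C3b attaches to the surface. Healthy cells hold this in check: CD55 speeds the decay of the enzymes that cleave C3, CD46 is a cofactor with which factor I cuts C3b, and clusterin binds the late components. Most circulating complement is made in the liver, but epithelial cells, tumor cells included, also express many of these genes, and several are inducible by interferons and inflammatory cytokines.

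Per library, between 12932 and 14199 genes reached 1 TPM. The labels of the 2 lines were checked against marker genes. Those of parental, Holoclone and Paraclone cells were not checked in this way. *VIM* and *ZEB1*, mesenchymal markers, summed to 2038 TPM or more in every Panc1 library and to at most 3.41 TPM in every Panc89 library, while the epithelial and ductal list of 5 genes summed to at least 2593 TPM in all 18 libraries. That sum does not separate the lines. On the log2(TPM + 1) scale, without parental Panc89 replicate 2, *CDH1*, *EPCAM* and *KRT19* were higher in parental Panc89 by 5.03, 3.95 and 1.03. *KRT8* was lower, at -0.79, and *KRT18* was not called. The hepatocyte markers *ALB*, *APOA1* and *TTR* summed to at most 0.718 TPM in any library. TPM keep no library total, so depth and counting error are unknown.

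One library has to be named before the results. In parental Panc89, replicate 2 lay apart from replicates 1 and 3 for all 8 genes, by between 0.52 and 2.00 on the log2(TPM + 1) scale, while replicates 1 and 3 lay within 0.23 of each other. Over the 16093 genes tested, replicate 2 lay more than 0.5 from the mean of the other two for 12.2%. *CFB* was listed at 147, 33.2 and 126 TPM in replicates 1, 2 and 3, and *CD55*, the only member that was higher in replicate 2, at 453, 806 and 442 TPM. *STAT2*, a transcription factor of the interferon response, was lower there too, at 118, 48.3 and 108 TPM. Its part in the member levels was not tested. The differences of the 8 genes that use parental Panc89 are therefore also given without replicate 2.

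In GENCODE 44 on GRCh38, *C3* spans chr19:6677704-6730562 on the minus strand, *CFB* chr6:31945650-31952086 on the plus strand and *CFI* chr4:109731008-109802150 on the minus strand. *C1S* (chr12:6988259-7071032, plus strand) and *C1R* (chr12:7080214-7092540, minus strand) are neighbours, as are *CD55* (chr1:207321519-207386804) and *CD46* (chr1:207752037-207795513), both on the plus strand. The exons of *C1R* overlap those of *C1RL* on the same strand, a gene listed at up to 81.9 TPM, and those of *CFB* overlap *C2*, listed at no more than 2.43 TPM. The *C1R* level is therefore uncertain to the extent that shared sequence was assigned to either gene. Exons of *CFB*, *CFI* and *C1S* also overlap same-strand protein-coding genes that have no symbol and no measured level. The effect of these on the 3 levels is unknown. Levels are per gene, and splice forms were not seen.

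Promoter sequences from RefSeq on GRCh38.p14 were matched for 5 of the 8 genes, *CD55*, *CD46*, *CFI*, *CFB* and *C1R*. The stretches of *CFB* and *CFI* are printed as examples. Both genes were lower in Panc89 Holoclone than in Panc89 Paraclone cells, as described further on. So was *CD55*, whose stretch is not printed. The RefSeq start used for *CFB* (31946095) lies 445 bases inside the GENCODE gene given above, and that for *CFI* (109801999) lies 151 bases inside. The 250 bases before the RefSeq start were searched on both strands for letters resembling an interferon-stimulated response element (ISRE: GAAA, any 2 bases, GAAA), a STAT site (GAS, TTCNNNGAA), an NF-kB site (GGG, any 5 bases, CC) and a C/EBP site (TTGCNNAA). Capitals mark an NF-kB-like and then an ISRE-like match in the first sequence (chr6:31945845-31945974, plus strand), a GAS-like match in the second (chr6:31945993-31946022, plus strand) and nothing in the third (chr4:109802151-109802249, minus strand). The first and the third stop where GENCODE gives the first exon within the 250 bases. The second lies past the start of that *CFB* exon.
CFB: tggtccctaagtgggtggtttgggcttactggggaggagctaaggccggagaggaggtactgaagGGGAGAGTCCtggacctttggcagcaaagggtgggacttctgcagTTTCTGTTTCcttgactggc
CFB GAS site: cgcttggatgTTCCGGGAAagtgatgtggg
CFI: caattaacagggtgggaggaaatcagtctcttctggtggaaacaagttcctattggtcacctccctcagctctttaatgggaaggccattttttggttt

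Of 27305 promoters searched in the same way, 3.07% held the ISRE-like letters, 6.78% the GAS-like, 53.7% the NF-kB-like and 9.13% the C/EBP-like letters. *CFB* held the first 3 kinds, with the ISRE-like match at -140 to -131 and the GAS-like match at -92 to -84 from the start, and none of these overlapped another kind. *C1R* held a GAS-like match at -86 to -78 beside NF-kB-like and C/EBP-like letters, *CD46* and *CD55* held NF-kB-like letters alone, and *CFI* held none of the 4. These are matches of letters, and no binding was measured.

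C3 is the component on which all complement pathways converge. *C3* was listed at 0.426, 0.408 and 0.465 TPM in parental Panc1, at 2.09, 0.996 and 1.71 TPM in Panc1 Holoclone and at 0.266, 0.360 and 0.675 TPM in Panc1 Paraclone cells. In Panc89 it reached 518, 346 and 477 TPM in parental cells, 142, 73.1 and 84.4 TPM in Holoclone and 474, 443 and 543 TPM in Paraclone cells. Every Panc89 library lay above every Panc1 library, and the Panc89 Holoclone libraries lay below all others of their line. In parental Panc89 the mean of 447 TPM was above that of 98.2% of the genes tested, against 10.3% for the mean of 0.433 TPM in parental Panc1.

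Factor B is the protease of the alternative pathway. *CFB* was listed at 4.35, 0.994 and 1.82 TPM in parental Panc1, at 1.93, 1.12 and 0.602 TPM in Panc1 Holoclone and at 2.06, 4.50 and 5.09 TPM in Panc1 Paraclone cells. In Panc89 Holoclone it was at 13.7, 12.8 and 20.9 TPM and in Panc89 Paraclone at 49.7, 55.6 and 71.2 TPM, beside the parental values above. All Panc89 libraries again exceeded all Panc1 libraries. Parental and Paraclone Panc89 overlapped only through parental replicate 2, and parental replicates 1 and 3 lay above every Paraclone library.

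C1r and C1s are the paired proteases of the first classical component. *C1S* was at 20.8, 5.59 and 19.1 TPM in parental Panc89, at 2.98, 3.21 and 3.15 TPM in Panc89 Holoclone and at 4.56, 6.62 and 8.60 TPM in Panc89 Paraclone cells, and ranged from 0.469 to 1.69 TPM over Panc1. *C1R* was at 13.6, 4.39 and 14.3 TPM in parental Panc89, at 4.60, 3.57 and 3.05 TPM in Holoclone and at 1.95, 2.44 and 3.56 TPM in Paraclone cells of that line, and at 0.573 to 2.29 TPM over Panc1. For both genes parental Panc89 had the highest group mean, and its replicate 2 lay among the clone libraries.

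Factor I is the protease that inactivates C3b. *CFI* was listed at 0 in 7 of the 9 Panc1 libraries and at no more than 0.0306 TPM in the other two. In Panc89 it was at 20.3, 7.58 and 20.2 TPM in parental, 2.38, 1.25 and 1.52 TPM in Holoclone and 12.9, 27.3 and 27.1 TPM in Paraclone cells. Panc89 Holoclone cells therefore lay below the other Panc89 groups and above all of Panc1.

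Clusterin is a secreted chaperone that also binds the terminal complex. *CLU* ran the other way: it was at 101, 156 and 156 TPM in parental Panc1, 104, 173 and 109 TPM in Panc1 Holoclone and 306, 245 and 215 TPM in Panc1 Paraclone cells. In Panc89 it was at 107, 59.2 and 110 TPM in parental, 43.6, 35.6 and 28.1 TPM in Holoclone and 28.2, 14.3 and 22.6 TPM in Paraclone cells. The Paraclone cells had the highest group mean in Panc1 and the lowest in Panc89.

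Among the membrane regulators, *CD46* varied least, from 72.7 to 115 TPM over Panc1 and from 164 to 291 TPM over Panc89, with no overlap between the lines. *CD55* was at 52.3, 43.3 and 59.9 TPM in parental Panc1, 14.1, 18.01 and 12.7 TPM in Panc1 Holoclone and 105, 130 and 129 TPM in Panc1 Paraclone cells. In Panc89 Holoclone it was at 705, 680 and 804 TPM and in Panc89 Paraclone at 1275, 1031 and 1598 TPM. In the order of *CD55* levels, the 3 Panc1 groups did not overlap each other, and in Panc89 the Paraclone libraries stood above the Holoclone and parental libraries. The latter groups overlapped only through parental replicate 2. Summed over *CD46* and *CD55*, the mean level was 92.0 ± 2.32 TPM (SD, n = 3) in Panc1 Holoclone and 1544 ± 338 TPM (SD, n = 3) in Panc89 Paraclone cells, the lowest and the highest group. That order describes this pair only. *CD59*, a membrane regulator described further on, is not in the sum. Its mean was 880 TPM in Panc1 Holoclone and 485 TPM in Panc89 Paraclone cells.

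**Figure D1:**
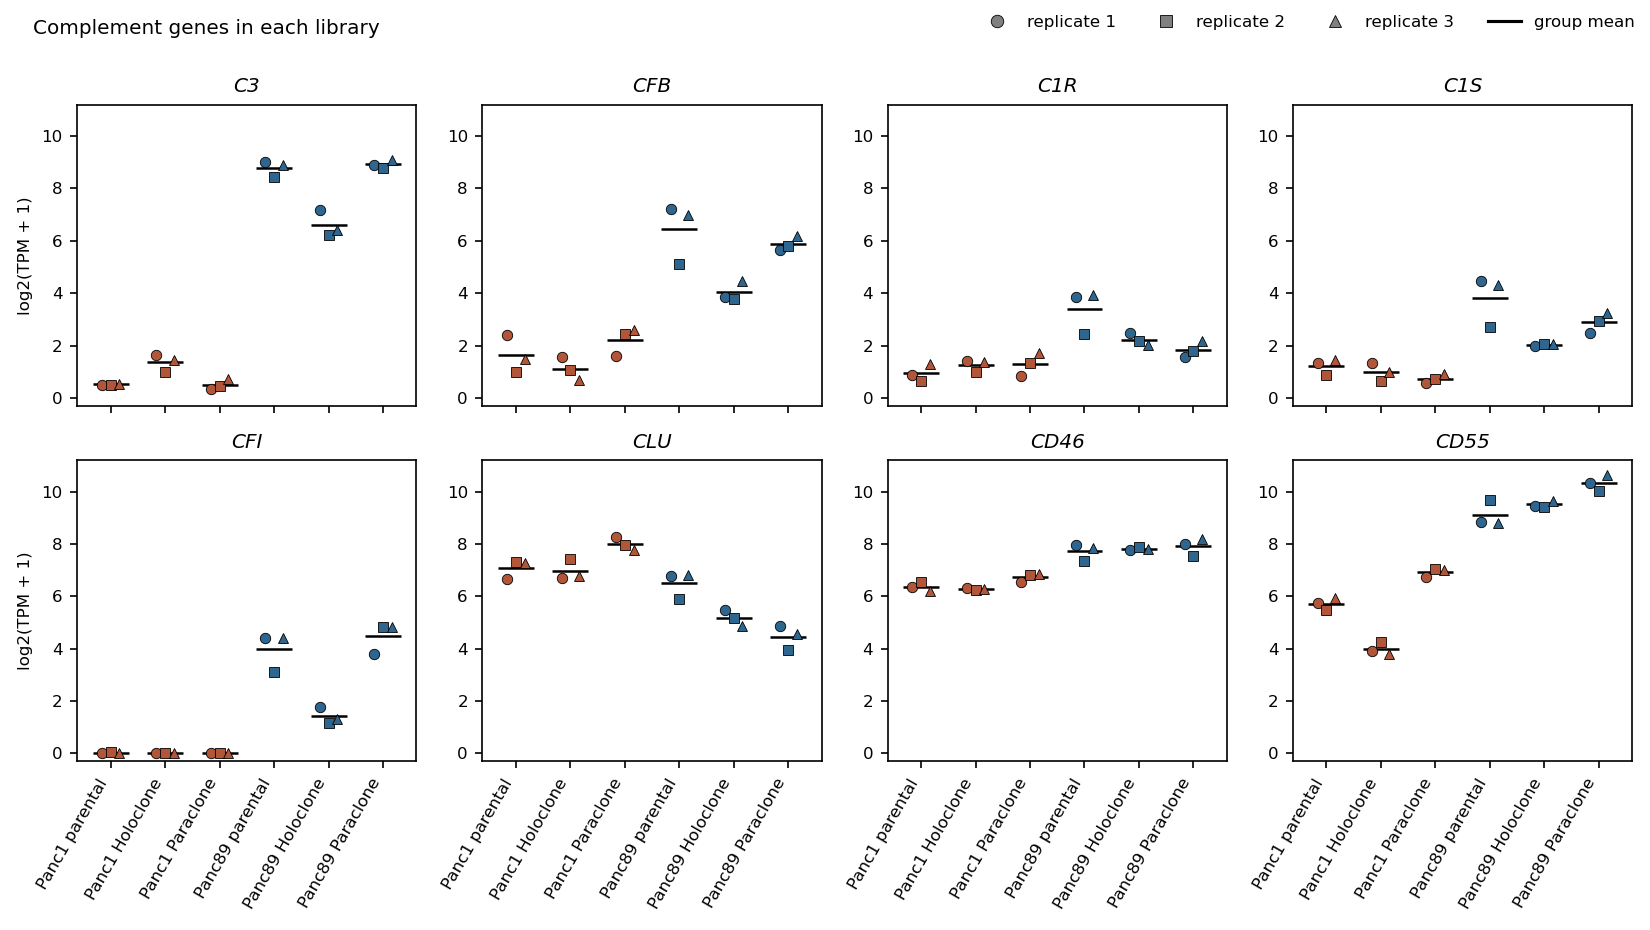
Level of each of the 8 genes in each of the 18 libraries, on the log2(TPM + 1) scale, with Panc1 in brown and Panc89 in blue, a symbol per replicate and a bar at each group mean. *C3* shows the widest gap between the lines, *CLU* is the only gene with its highest group in Panc1, and parental Panc89 replicate 2 (square) lies apart from replicates 1 and 3.

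The first comparison asked how the epithelial and the mesenchymal-like line differ. With a single line of each kind, this phenotype cannot be told apart from the patient or the site from which the line came. In parental cells 7 of the 8 genes were higher in Panc89, none was lower, and *CLU* did not pass the test. *C3* was higher by 8.27 ± 0.23 (SE) on the log2(TPM + 1) scale, 308-fold in TPM + 1 (limma, adjusted p = 6.29e-14), *CFB* by 4.79 ± 0.48 (adjusted p = 2.96e-07) and *CD55* by 3.38 ± 0.22 (adjusted p = 1.69e-09). *C1R* and *C1S* were higher by 2.46 and 2.62, *CD46* by 1.35, and *CFI*, listed at or near 0 in Panc1, by 3.96. The *CLU* difference was -0.59 with a 95% interval from -1.22 to 0.03 (adjusted p = 0.0861).

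Of all 16093 genes tested, 66.0% were called in this comparison, 27.5% higher and 38.5% lower in Panc89, and the median log2 fold change was -0.18 against 3.00 for the 8 members. The share called among the members is to be read against this background. The members were chosen with earlier results of these data known, and the background was not, so the gap between them is descriptive only. *C3* and *CFI* passed the filter only through Panc89, so their direction between the lines was not an independent outcome. In bulk libraries fewer expressing cells and less RNA per cell cannot be told apart. Without replicate 2 of parental Panc89 the same number, 7, was called, and the differences became 8.44 for *C3*, 5.46 for *CFB*, 2.95 for *C1R*, 3.18 for *C1S*, 4.40 for *CFI*, 1.52 for *CD46* and 3.10 for *CD55*, with *CLU* at -0.31 (95% interval -0.93 to 0.32, adjusted p = 0.384). Of the markers of other cell types tested, *PECAM1* and *CDH5* of the endothelial list were higher in parental Panc89 by 5.86 and 2.19, *CD14* of the leukocyte list by 1.83 and *COL1A1* of the fibroblast list by 0.83. The summed endothelial list was at 55.2 to 69.1 TPM in parental Panc89 and at most 0.149 TPM in parental Panc1, the leukocyte list at 3.91 to 5.28 against 0.170 to 0.719 TPM and the fibroblast list at 20.5 to 27.2 against 11.9 to 14.3 TPM. *PTPRC* stayed at or under 0.956 TPM and *VWF* at or under 0.136 TPM in both. Their part in the result was not tested.

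The clones were compared between the lines in the same way. Between the Holoclones 7 genes were higher in Panc89 and *CLU* was lower, against 65.8% of all genes called, 29.3% higher and 36.4% lower. On the log2(TPM + 1) scale *CD55* was higher by 5.53 ± 0.22 (SE, adjusted p = 4.41e-12), 46.1-fold in TPM + 1. *C3* was higher by 5.24 ± 0.23 (adjusted p = 1.24e-11) and *CFB* by 2.93. Under the alternative settings described below, *C3* ranged from 4.96 to 5.87 and *CD55* from 5.43 to 5.70, so their order is not fixed. *CFI* was higher by 1.41, *CD46* by 1.54, *C1S* by 1.04 and *C1R* by 0.98, and *CLU* fell by 1.80 (adjusted p = 5.56e-05). Under the same alternatives *CFI*, listed at or near 0 in Panc1, ranged from 1.25 to 4.08, and *CFB* from 2.72 to 3.69. The calls of *C1R* (adjusted p = 0.0201) and *C1S* (adjusted p = 0.0168) were lost without Panc1 Holoclone replicate 2, at adjusted p = 0.0743 and 0.0701, and that of *C1R* also without Panc89 Holoclone replicate 1 (adjusted p = 0.0674). With a replicate block within each line *C1S* was not called (adjusted p = 0.0792).

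Between the Paraclones 6 genes were higher in Panc89 and *CLU* was lower, against 60.7% of all genes called, 30.2% higher and 30.4% lower. *C3* was higher by 8.42 ± 0.23 (SE, adjusted p = 4.71e-14), *CFI* by 4.48, *CFB* by 3.66, *CD55* by 3.40, *C1S* by 2.15 and *CD46* by 1.16. *CLU* fell by 3.53 ± 0.29 (adjusted p = 3.7e-08), 11.6-fold in TPM + 1. *C1R* was 0.55 higher, with a 95% interval from -0.18 to 1.28 (adjusted p = 0.180), and its libraries overlapped.

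**Figure D2:**
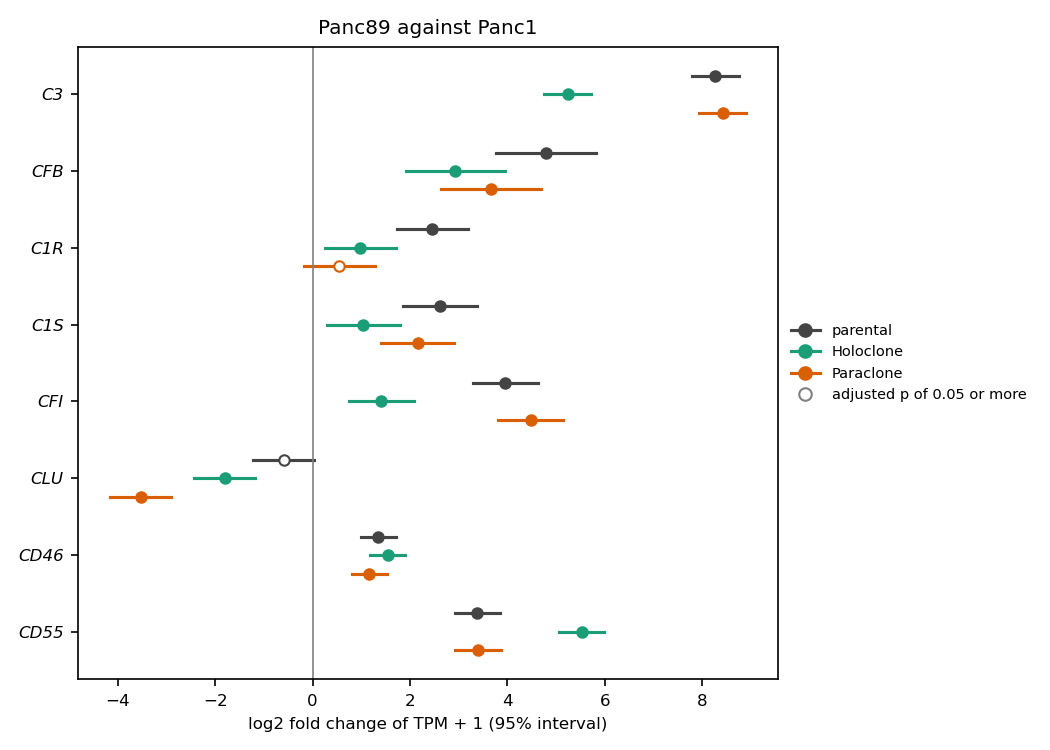
Difference of each gene between Panc89 and Panc1 as log2 fold change of TPM + 1, for parental, Holoclone and Paraclone cells, with 95% intervals and open symbols where the adjusted p was 0.05 or more. *C3* lies at 8.27, 5.24 and 8.42, while *CLU* is the only gene to the left of 0.

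The comparison of Holoclone with Paraclone cells asks how the stem and non-stem variants differ within a line. In Panc1, *CD55* fell by 2.94 ± 0.22 (SE, adjusted p = 5.73e-08) in Holoclone against Paraclone cells, 7.69-fold in TPM + 1. *CLU* fell by 1.01 ± 0.29 (adjusted p = 0.0131) and *CD46* fell by 0.45 ± 0.17 (adjusted p = 0.0453), while *C3* was higher by 0.85 ± 0.23 (adjusted p = 0.00785) at levels near 1 TPM. *CFB* was at -1.12 with a 95% interval from -2.14 to -0.10 (adjusted p = 0.0795) and no overlap between the libraries. It passed with a pseudocount of 0.1 (-1.63, adjusted p = 0.0369), with median-of-ratios scaling and without Panc1 Paraclone replicate 1. *C1R*, *C1S* and *CFI* were not called, at -0.04, 0.26 and 0.01.

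One member of 8 was thus called higher and 3 were called lower in Panc1, beside 37.3% of all genes called, 27.4% higher and 9.97% lower. The median over all genes in this comparison was 0.19 and that of the members -0.25. With upper quartile scaling the all-gene median was 0.0068 and the share of higher among called genes went from 73.3% to 51.3%. The *CD46* call was lost without any 1 of 5 libraries, the 3 Holoclone replicates and Paraclone replicates 2 and 3, with adjusted p up to 0.138, and the *CLU* call without Holoclone replicates 1 or 3 or Paraclone replicate 1, with adjusted p up to 0.0563. Of the 11 cell type markers tested, 4 were higher and 3 lower in Panc1 Holoclone than in Panc1 Paraclone cells. The summed fibroblast list was at 6.35 to 9.36 TPM in Holoclone and 0.967 to 1.33 TPM in Paraclone cells. The summed leukocyte and endothelial lists stayed under 1 TPM and overlapped. The part of the markers in the result was not tested.

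In Panc89, 4 of the 8 genes were lower in Holoclone than in Paraclone cells and none was higher. *CFI* fell by 3.06 ± 0.31 (SE, adjusted p = 2.06e-06), 8.32-fold in TPM + 1, *C3* fell by 2.33 ± 0.23 (adjusted p = 1.21e-06), 5.02-fold, and *CFB* fell by 1.85 ± 0.48 (adjusted p = 0.00689). *CD55* fell by 0.81 ± 0.22 (adjusted p = 0.00846), a call that was lost without Panc89 Paraclone replicate 3 (adjusted p = 0.0503). *C1S* was at -0.85 (95% interval -1.61 to -0.10, adjusted p = 0.0744) and *CLU* at 0.72 (0.10 to 1.34, adjusted p = 0.0678), *C1R* at 0.39 and *CD46* at -0.08.

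Of all genes 35.7% were called in Panc89, 22.4% higher and 13.3% lower, with a median of 0.09 against -0.83 for the members. *C1S* passed with upper quartile (adjusted p = 0.0474) and median-of-ratios scaling (adjusted p = 0.0388). *CLU* passed when replicate 1 of the Panc89 Paraclone was left out (adjusted p = 0.0387), and also with a replicate block within each line (adjusted p = 0.0461). Of the 11 cell type markers tested, 8 were lower in Holoclone cells and 0 were higher (limma), with a median of -0.88: *CD14* (-1.77), *PECAM1* (-1.48), *CDH5* (-0.88) and *COL1A1* (-0.72) of other cell types, and *KRT8*, *KRT18*, *EPCAM* and *ZEB1*, at -0.98 to -0.65. The summed leukocyte list was at 0.564 to 0.857 TPM in Holoclone and 2.38 to 5.25 TPM in Paraclone cells, the endothelial list at 1.01 to 2.16 against 2.95 to 8.90 TPM and the fibroblast list at 9.96 to 21.5 against 23.5 to 26.0 TPM, while *PTPRC*, the defining leukocyte gene, stayed at or under 0.388 TPM in both. Their part in the result was not tested.

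The change from Paraclone to Holoclone cells was then compared between the lines. It differed for 4 of the 8 genes, 2 in each direction, beside 35.1% of all genes, 14.8% with a higher and 20.4% with a lower change in Panc89. *C3* rose in Panc1, at levels near 1 TPM, and fell in Panc89, a difference of -3.17 ± 0.32 (SE, adjusted p = 1.98e-06). *CD55* fell in both lines, and the difference of the changes was 2.13 ± 0.31 (adjusted p = 7.35e-05). *CFI*, listed at or near 0 in both Panc1 clones, differed by -3.06 ± 0.44 (adjusted p = 6.97e-05), and *CLU* by 1.73 ± 0.41 (adjusted p = 0.00425). For *CFB* the difference was -0.73, with a 95% interval from -2.17 to 0.72, for *C1R* 0.43 (-0.60 to 1.46), for *C1S* -1.11 (-2.18 to -0.04, adjusted p = 0.0995) and for *CD46* 0.38 (-0.13 to 0.89).

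**Figure D3:**
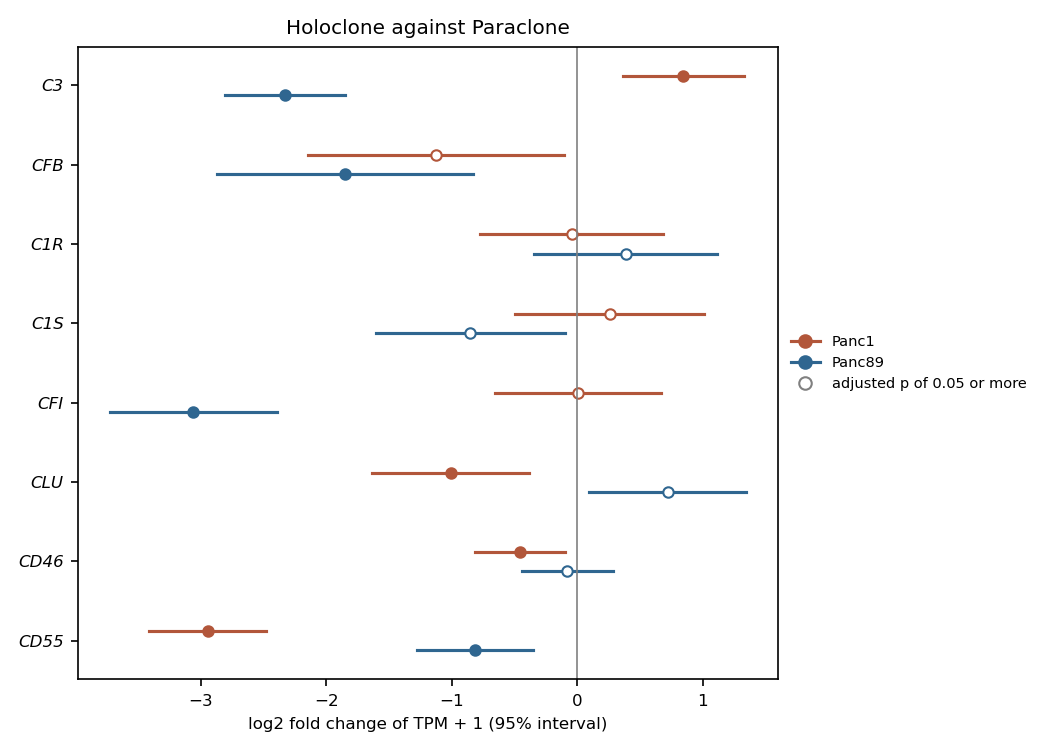
Difference between Holoclone and Paraclone cells in each line as log2 fold change of TPM + 1, with 95% intervals and open symbols where the adjusted p was 0.05 or more. *C3* lies at 0.85 in Panc1 and -2.33 in Panc89, and *CD55* at -2.94 and -0.81.

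Each clone was also set against the parental cells from which it was derived, and the comparisons of a line share those parental libraries. In Panc1 Holoclone cells *CD55* fell by 1.73 ± 0.22 (SE, adjusted p = 8.79e-05) and *C3* rose by 0.84 ± 0.23 (adjusted p = 0.0255), the latter call being lost without any 1 of the 3 parental libraries or Holoclone replicates 1 or 3, with adjusted p up to 0.111. That is 2 of 8 members, 1 in each direction, beside 10.9% of all genes, 5.87% higher and 5.06% lower. In Panc1 Paraclone cells *CD55* rose by 1.22 ± 0.22 (adjusted p = 0.000727) and *CLU* by 0.90 ± 0.29 (adjusted p = 0.0306), with no member lower, beside 28.6% of all genes, 7.31% higher and 21.3% lower. The *CLU* call was lost without parental replicate 1 or Paraclone replicates 1 or 2, with adjusted p up to 0.139. *CD46* was at 0.37 (adjusted p = 0.119) and passed under upper quartile (0.56, adjusted p = 0.0410) and median-of-ratios scaling (0.60, adjusted p = 0.0305).

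In Panc89 Holoclone cells 6 of the 8 genes were lower than in parental Panc89 and none was higher, beside 24.7% of all genes, 16.1% higher and 8.61% lower. *CFI* fell by 2.55 ± 0.31 (SE, adjusted p = 2.14e-05), *CFB* fell by 2.39 ± 0.48 (adjusted p = 0.00168) and *C3* fell by 2.19 ± 0.23 (adjusted p = 3.97e-06), while *C1S* fell by 1.79, *CLU* fell by 1.31 and *C1R* fell by 1.18. Of these, the *C1R* libraries overlapped, only through parental replicate 2. *CD46* was at 0.11 and *CD55* at 0.42 (95% interval -0.05 to 0.88, adjusted p = 0.188). Without parental replicate 2, *CD55* was also called (0.70, adjusted p = 0.0169), and the differences became -2.99 for *CFI*, -3.06 for *CFB*, -2.36 for *C3*, -2.35 for *C1S*, -1.60 for *CLU* and -1.67 for *C1R*, with *CD46* at -0.07. The *C1R* call was lost without any 1 of parental replicates 1 and 3 and Holoclone replicates 2 and 3, with adjusted p up to 0.101.

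In Panc89 Paraclone cells *CD55* rose by 1.23 ± 0.22 (SE, adjusted p = 0.000844), while *CLU* fell by 2.03 ± 0.29 (adjusted p = 0.000151) and *C1R* fell by 1.57 ± 0.34 (adjusted p = 0.00412), so that 1 member was higher and 2 were lower, beside 19.4% of all genes, 9.37% higher and 10.0% lower. *C3* was at 0.14 (95% interval -0.34 to 0.62), *CFI* at 0.50, *CFB* at -0.54, *CD46* at 0.19 and *C1S* at -0.94 (adjusted p = 0.0766). Without parental replicate 2 the number called went from 3 to 5, with *C1S* at -1.50 (adjusted p = 0.000580) and *CFB* at -1.21 (adjusted p = 0.0448) added, and the values became 1.52 for *CD55*, -2.32 for *CLU*, -2.06 for *C1R*, -0.04 for *C3*, 0.07 for *CFI* and 0.01 for *CD46*. *PECAM1*, an endothelial marker, was also higher in parental Panc89 (53.2 to 64.7 TPM) than in the Holoclone (0.565 to 1.25 TPM) and Paraclone cells (1.92 to 6.90 TPM), and the summed list of 3 endothelial genes was at 55.2 to 69.1 TPM against at most 8.90 TPM, while *VWF* of that list stayed at or under 0.355 TPM in all 3 groups. *CD14* was lower in Holoclone than in parental cells as well (-2.07). Of the 11 markers tested, 6 were lower in Holoclone cells, and 2 were lower and 2 higher in Paraclone cells. Their part in the results against parental cells was not tested.

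The other genes of the system were taken from a list of 48 by role, of which 19 passed the filter and 5 were at 0 in every library. Of the 16 listed for classical and lectin initiation only *C2*, *C4A*, *C4B* and *C1RL* passed, so the 3 genes of C1q, the recognition unit that carries C1r and C1s, did not reach the filter. Of the 7 terminal pathway genes *C5* and *C8G* passed. Between the parental cells 11 of the 19 were higher and 3 lower in Panc89 (median 0.91), between the Holoclones 6 and 3, and between the Paraclones 7 and 4. In all, 73.7%, 47.4% and 57.9% of the 19 were called, beside 66.0%, 65.8% and 60.7% of all genes. Without parental Panc89 replicate 2, 11 were higher and 2 lower between the parental cells.

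*CFD*, the protease that activates factor B, was higher in Panc89 by 2.39 in parental, 1.83 in Holoclone and 2.47 in Paraclone cells, and *C1RL*, a C1r-like protease, by 2.54, 1.93 and 2.14 in the same order. Without parental Panc89 replicate 2 the parental differences were 2.50 for *CFD* and 2.64 for *C1RL*.

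CD59 blocks the last step of pore formation at the cell surface. The *CD59* differences between Panc89 and Panc1 were -2.23, -2.05 and -1.85 in parental, Holoclone and Paraclone cells (adjusted p = 4.16e-07, 1.07e-06 and 3.88e-06), opposite in sign to *CD46* and *CD55*. The parental value was -2.36 without Panc89 replicate 2. It was at 1693 to 1788 TPM in Panc1 Paraclone and at 835 to 912 TPM in Panc1 Holoclone cells, and at 407 to 533 TPM in Panc89 Paraclone and 149 to 345 TPM in Panc89 Holoclone cells. Holoclone cells were thus lower than Paraclone cells in both lines, at -0.99 in Panc1 (adjusted p = 0.00323) and -1.19 in Panc89 (adjusted p = 0.000841), in the same direction as *CD55*.

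C4 is the component that C1s cleaves. *C4A* and *C4B* are near-identical copies whose reads cannot be assigned with certainty, and their sum was at 89.1, 9.67 and 92.0 TPM in parental Panc89, at 1.84 to 3.41 TPM in Panc89 Holoclone, at 1.98 to 3.32 TPM in Panc89 Paraclone and at 2.86 to 7.68 TPM over Panc1. Parental Panc89 replicate 2 thus lay close to the Panc1 range. Against parental Panc89, *C4A* and *C4B* were at -3.61 and -3.16 in Holoclone and at -3.51 and -3.10 in Paraclone cells, the largest falls among the 19 genes in both comparisons. Without parental replicate 2 these became -4.59 and -4.17 in Holoclone and -4.50 and -4.11 in Paraclone cells.

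Among the receptors, *CR2*, which binds C3 fragments, was higher in Panc89 Holoclone than in Paraclone cells by 2.74 (adjusted p = 4.26e-08). *ITGB2*, a subunit of the receptors for cleaved C3b, and *C5AR2*, a C5a receptor, were lower in Holoclone cells, at -2.32 and -2.54 (adjusted p = 5.81e-05 and 7.18e-05). Of the 19 genes, 4 were higher and 5 lower in this comparison, 47.4% beside 35.7% of all genes. In Panc1 Holoclone against Paraclone cells 1 was higher and 3 were lower, 21.1% beside 37.3% of all genes. There *C5AR1* was higher by 1.40 and *ITGB2*, *CD59* and *SUSD4* were lower, *SUSD4* with a mean of only 0.990 TPM in Panc1 Paraclone cells. The change between the clones differed between the lines for 5 of the 19, 26.3% beside 35.1% of all genes. The change was higher in Panc89 for 4, *CR2* (by 2.80) among them, and lower for *C5AR2*. Against the parental cells, the numbers higher and lower were 0 and 2 in Panc1 Holoclone, 2 and 4 in Panc1 Paraclone, 2 and 5 in Panc89 Holoclone and 3 and 7 in Panc89 Paraclone cells. In that order the shares called were 10.5%, 31.6%, 36.8% and 52.6%, beside 10.9%, 28.6%, 24.7% and 19.4% of all genes. Without parental Panc89 replicate 2 the last 2 comparisons gave 2 and 6, and 2 and 7.

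**Figure D4:**
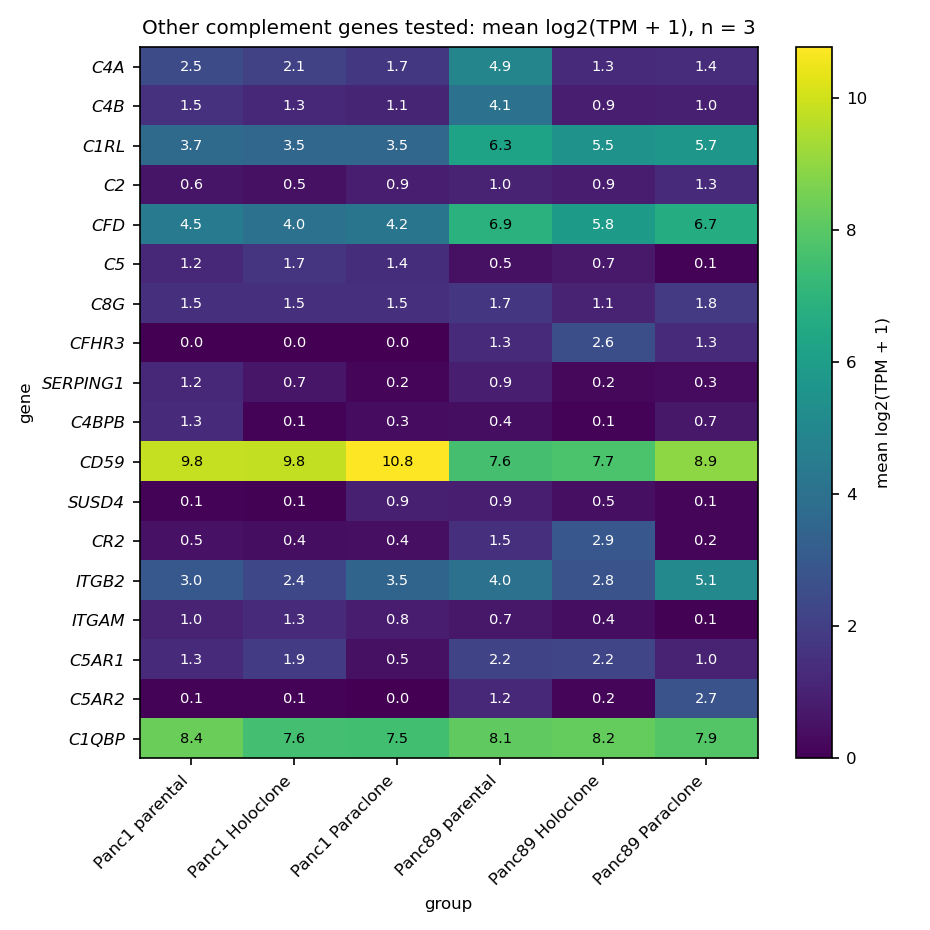
Mean log2(TPM + 1) of 18 other complement genes tested, 1 row per gene and 1 column per group of 3 libraries, with the value printed in each cell. *CD59* is highest in Panc1, *CFD* is higher in each Panc89 group than in any Panc1 group, and *C4A* and *C4B* stand out in parental Panc89 alone.

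Transcription factors and receptors known to act on complement genes were counted from a list of 23, of which 20 passed the filter. Between the parental cells 9 were higher and 5 lower in Panc89, the former including *CEBPD* by 4.39, *IRF9* by 2.48 and *STAT2* by 2.18, and the latter *IL1R1* at -1.80, *IL6ST* at -1.27, *IFNGR2* at -1.15 and *STAT3* at -0.81. The share called was 70%, close to the 66.0% of all genes. Without parental Panc89 replicate 2, 9 were higher and 4 lower, with *CEBPD* at 4.45, *IRF9* at 2.75 and *STAT2* at 2.58. Between the Holoclones 9 were higher and 5 lower, 70% beside 65.8% of all genes, and between the Paraclones 6 and 5, 55% beside 60.7%. In Panc89 Holoclone against Paraclone cells 3 were higher and 2 lower, 25% beside 35.7% of all genes: *IRF1*, *CEBPD* and *CEBPA* rose by 1.31, 1.21 and 0.76, while *RELB*, an NF-kB subunit, fell by 1.98 and *NFKB2* fell by 0.63. In Panc1 Holoclone against Paraclone cells 2 were higher and 6 lower, 40% beside 37.3% of all genes, with *CEBPD* at -1.85. RNA levels of these genes do not measure their activity.

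For each member the genes with the most similar profile were found by the root mean square difference of centred log2(TPM + 1) values over the 18 libraries. *KYNU* (0.49) and *GAGE12F* (0.47) lay closest to *C3*, *LY6E* (0.57) and *NR4A2* (0.58) to *CFB*, and *PDE3A* (0.39) and *INSL4* (0.44) to *CFI*. *CBLC* (0.70) and *PLAUR* (0.71) lay closest to *CD55*, *TRIM11* and *IFITM3P1* (both 0.21) to *CD46*, and *SLC12A7* (0.43) and *SYNGR1* (0.49) to *CLU*. For *C1R* they were *IL17C* and *CPZ* (both 0.33), and for *C1S* *PARP10* (0.36) and *RFK* (0.41). The members' own root mean square spread ranged from 0.71 for *CD46* to 3.75 for *C3*. No member was among the 2 closest genes of another.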

How the data were processed

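RNA was taken from 3 passages of each of the 6 cell variants. The authors made stranded mRNA libraries for paired-end sequencing and quantified transcripts with kallisto 0.46.1 against the Ensembl GRCh38 release 106 transcriptome, summarised per gene as scaled TPM (tximport). The table as deposited holds log2 values of TPM + 1 for each gene symbol and library, and TPM were obtained by raising them back. No column lacked a sample.

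Differences were fitted with limma 3.58.1 in R 4.3.3 (lmFit, eBayes with trend) on log2(TPM + 1) with all 18 libraries and 1 mean per group, over 16093 genes, those reaching 1 TPM in 3 or more libraries. Tests were two-sided, and p was adjusted by Benjamini-Hochberg over all genes tested, with a threshold of 0.05. The p-values measure the spread between passages. Fold changes on this scale understate those of low genes. The fit was tested on simulated data.

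Alternatives were a pseudocount of 0.1, no filter, 2 other scalings, the groups compared alone, a replicate block, a stricter threshold and each library left out. All 8 members are named. Other complement genes are named where they pass the threshold with at least 1 TPM in the higher group, except *SUSD4*, which lay just under 1 TPM there. The regulators are counted as a list and named where a result turns on them, in part after their values were seen. The 2 genes with the profile closest to each member are also named. The members and lists were chosen with earlier results of these data known. Some genes of these lists are counted but not reported here by name.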

Additional observations from a re-analysis of the deposited data

Results flagged for a closer look

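For 4 genes the change from Paraclone to Holoclone cells differed between the lines by a test of the difference itself (limma, interaction of line and variant). The difference, Panc89 minus Panc1 on the log2 scale, was -3.17 for *C3*, -3.06 for *CFI*, 2.13 for *CD55* and 1.73 for *CLU*. All 4 passed under every alternative run. *C3* was called in opposite directions in the lines, with levels from 0.266 to 2.09 TPM over the Panc1 clones. Its call between the Panc1 clones (0.85) was lost when a log2 fold change above 1 was also required. *CD55* was lower in Holoclone cells of both lines, *CFI* was listed at or near 0 in both Panc1 clones, and *CLU* was called in Panc1 only. Each variant is 1 clone per line, so line and clone cannot be told apart here.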

How the results depend on the processing

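The 47 calls of members were recomputed in 635 values under the alternatives. Of these, 599 kept direction and call, 36 kept direction and lost the call, and 0 reversed. A fold change above 1 on the log2 scale, required in addition, left 2 members instead of 4 in Panc1 Holoclone against Paraclone, 1 instead of 2 in Panc1 Holoclone against parental and 1 instead of 2 in Panc1 Paraclone against parental cells, and without a filter the last was also 1. It also left 7 instead of 8 between the Holoclones (without *C1R*) and 3 instead of 4 between the Panc89 clones (without *CD55*). Leaving out 1 library gave 2 to 4, 1 to 2 and 1 to 2 for these, and 3 to 5 for Panc89 Paraclone against parental cells. The same added threshold lowered the genes called from 10623 to 6020, 10583 to 5996 and 9767 to 5271 between the lines (parental, Holoclone, Paraclone), from 6006 to 1860 and 5746 to 2124 between the clones of Panc1 and Panc89, from 5655 to 3292 for the difference of the change, and from 1759 to 516, 4599 to 1279, 3981 to 1369 and 3120 to 1184 against parental cells (Panc1 Holoclone and Paraclone, then Panc89). The fit of the groups compared alone gave 3377 genes in Panc89 Holoclone against Paraclone cells. With that fit *C1R* and *C1S* in Panc89 Holoclone (adjusted p = 0.119 and 0.0511) and *C1R* in Panc89 Paraclone cells (adjusted p = 0.0790) against parental cells lost their calls and *C1S* gained one in the difference of the change (adjusted p = 0.0201). Without Panc1 Holoclone replicate 3, 1061 genes were called against parental Panc1. Without the filter, *CD46* in Panc1 Holoclone against Paraclone (adjusted p = 0.0778) and *CLU* in Panc1 Paraclone against parental cells (adjusted p = 0.0621) were lost. Without Panc1 parental replicate 1, *CLU* was called between the parental cells (-0.80, adjusted p = 0.0389). The causes were not tested beyond the fewer samples or stricter rule of each.

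Replicate numbers did not pair the samples: over 18 pairs the correlation of deviations ran from -0.318 to 0.19, with a mean of -0.0418. With a replicate block within each line, 7 of 8 members were called between the Holoclones and 5 between the Panc89 clones, against 8 and 4, and 7, 7, 4, 4, 2, 2, 6 and 3 in the other comparisons, as without it.

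Scaling shifted the all-gene medians. Between main and upper quartile scaling the share of higher calls went from 25.6% to 47.4% in Panc1 Paraclone against parental, from 62.8% to 52.5% between the Panc89 clones and from 65.2% to 51.3% in Panc89 Holoclone against parental cells, and between main and median-of-ratios scaling from 41.6% to 51.8% between the parental lines. Depth is unknown, so values under about 1 TPM carry no stated precision.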
